A study of Mus musculus with 4 samples.

Results

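The Fos and Jun families and the immediate early genes Egr1 and Ier2 were followed in cultured muscle stem cells (MuSC, satellite cells) with and without Prmt5. The 9 genes, Fos, Fosb, Fosl1, Fosl2, Jun, Junb, Jund, Egr1 and Ier2, were chosen by gene family, with no threshold on their values but with earlier results of these data known, and all 9 of the 9 were in the deposited table of 20065 genes and among the 16212 genes that passed the filter on low values. The study asked which transcripts change when MuSC lose Prmt5, an arginine methyltransferase that places symmetric dimethylation on histones and other proteins. RNA came from cultured MuSC of limb and trunk muscles of adult C57BL/6 mice, in 2 control and 2 Prmt5sKO libraries. By the strain labels, control cells were Pax7CreERT2/Prmt5+/loxP and Prmt5sKO cells Pax7CreERT2/Prmt5loxP/loxP, both marked (+TAM), while titles and genotype labels call the controls WT or wild type. By the strain labels the controls therefore also carried Cre and 1 floxed allele. The methods describe 4-OH-TAM, the active form of tamoxifen, added to the cultured cells of both genotypes. Cre was driven from Pax7, and recombination is therefore limited to cells that expressed Pax7 at the time of treatment.

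AP-1 is a dimer of bZIP proteins, in which a Jun protein pairs with a Fos protein or with another Jun protein and binds short DNA motifs in promoters and enhancers. Immediate early genes are transcribed within minutes of a stimulus from pre-existing factors such as SRF, its ELK partners and CREB, which signalling kinases activate, and their mRNAs are short-lived. In muscle stem cells Fos and Jun genes are known for their fast induction when a fibre is damaged or a cell is taken out of its niche, and AP-1 is known for its antagonism with the myogenic factors.

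Promoter sequences are shown for the 4 of 6 members searched whose proximal promoter held a CREB- or AP-1-type motif. Elements of this kind are known to take part in early induction. Each line gives the 150 bases before the RefSeq start, 5′ to 3′ in the direction of transcription (GRCm38.p6). Capitals mark TGACG, the core of the CREB site, TGACATCA, an AP-1-like site, and TATAAA, the TATA box. Both strands were searched, and the motifs did not overlap each other. The windows lie at chr12:85473740-85473889 on the plus strand for Fos, chr7:19310046-19310195 on the minus strand for Fosb, chr8:84978749-84978898 on the minus strand for Junb and chr4:95052223-95052372 on the minus strand for Jun.
Fos: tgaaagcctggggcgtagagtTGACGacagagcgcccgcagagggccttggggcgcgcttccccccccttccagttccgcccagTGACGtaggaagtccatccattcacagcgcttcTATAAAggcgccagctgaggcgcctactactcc
Fosb: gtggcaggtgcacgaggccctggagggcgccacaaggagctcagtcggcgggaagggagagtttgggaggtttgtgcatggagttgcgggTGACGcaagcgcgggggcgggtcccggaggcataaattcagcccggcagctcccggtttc
Junb: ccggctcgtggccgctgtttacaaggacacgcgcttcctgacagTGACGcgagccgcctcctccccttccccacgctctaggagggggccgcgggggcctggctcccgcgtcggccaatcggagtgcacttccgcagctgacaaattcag
Jun: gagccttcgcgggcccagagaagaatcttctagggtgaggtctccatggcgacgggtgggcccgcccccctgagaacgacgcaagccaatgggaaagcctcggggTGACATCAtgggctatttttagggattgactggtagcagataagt

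The Fos promoter held TGACG at 129 and 66 bases before the start and a TATA box at 33 bases. Fosb held TGACG at 60 bases, Junb at 106 bases, and Jun held TGACATCA at 45 bases before the start. Of the 6 members searched, TGACG was in 3, TGACATCA in 1 and TATAAA in 1. TGACG was in 13.5% of the windows of the same length before 27025 genes, TGACATCA in 2.41% and TATAAA in 8.08%. The windows shown were chosen for a motif, so a motif in each of them is no finding. The CArG box, the site of SRF (0.884% of all windows), was in none of the 6 windows searched. A site further from the start would lie outside these windows, and Egr1 was left out of the search. Whether these genes have a CArG box elsewhere was therefore not tested. The table also held Fosl2 and Jund, whose windows held none of these motifs. Their RefSeq starts lie away from the GENCODE gene starts used for the coordinates here, and their windows are not shown. A match of letters is a description of the sequence and not a bound site.

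The recovered reads summed to between 13240754 and 20047430 per library. Values are counts normalized by the trimmed mean of M-values (TMM), and the 2 libraries of a group are called deeper and shallower by their read totals, since the deposited columns carry no replicate numbers. Wherever a pair of values is given for a group, the deeper library comes first. Nothing in the labels says that the libraries of a group came from separate animals or cultures, so p-values measure only the spread between these libraries. Prmt5 had normalized counts of 2273 and 2906 in control and of 244 and 202 in Prmt5sKO cells. Beside the members, 3 features separated the libraries. Counts of ribosomal-type genes with Lars2 made up 6.54% and 14.9% of the control libraries, against 1.94% and 2.64% of the Prmt5sKO libraries. The 10 markers of differentiating muscle summed to 388550 normalized counts in the shallower Prmt5sKO library and to between 44612 and 95922 in the other 3. Xist, an RNA of female cells, was at 8668 in the deeper control and 5655 in the shallower Prmt5sKO library. It was at 23.3 and 8.15 in the other libraries. The 2 libraries of each group thus differed in this marker of sex and were not repeats of the same cells. The myogenic markers Pax7, Myf5, Myod1, Des, Cdh15, Itga7 and Vcam1 were all among the genes tested, and they summed to between 41580 and 72931.

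None of the 9 members passed the threshold, an adjusted p of at most 0.05 with a fold change of at least 2 in limma-voom with Benjamini-Hochberg adjustment over all genes. The threshold called 0 of the 16212 genes, a percentage of 0, while 2101 genes had an unadjusted p under 0.05. The paper used the same limits with DESeq2 and did report changed genes. The 0 calls therefore belong to this limma-voom fit. Robust limma-trend called 1 gene. The smallest adjusted p of any gene in limma-voom, 0.193, was that of Prmt5, the deleted gene (log2 fold change -3.52). The threshold thus missed the deletion itself, and a member that did not pass it is not shown to be unchanged. The fitted log2 fold change was above 0 for 8 members and below 0 for 1, with a median of 0.40, against 0.02 over all genes tested. With the shallower control library left out this median was 0.20, with the deeper control 0.59, with the deeper Prmt5sKO library 0.23 and with the shallower Prmt5sKO library 0.76. Both Prmt5sKO libraries lay above both control libraries for 4 members, Fos, Fosl2, Jund and Egr1, which held for 25.2% of all genes. They lay below both control libraries for 1 member, Fosl1, which held for 23.6% of all genes. With 2 libraries against 2, an exact two-sided permutation test of a single gene cannot give a p below 0.333.

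At an unadjusted p under 0.05 in limma-voom there were 3 members higher in Prmt5sKO, Fos, Jund and Egr1, and 1 lower, Fosl1. With a replicate block that paired the deeper libraries, Fos no longer reached this level (unadjusted p = 0.0654 in limma-voom). Of all genes, 6.01% were higher and 6.95% lower by the same measure. A fold change of at least 2 upwards was fitted for 2 members, Fos and Egr1, and for 12.8% of all genes. The Fos family thus held members on both sides, and the only member on the lower side was the one with the highest control level of that family.

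**Figure D1:**
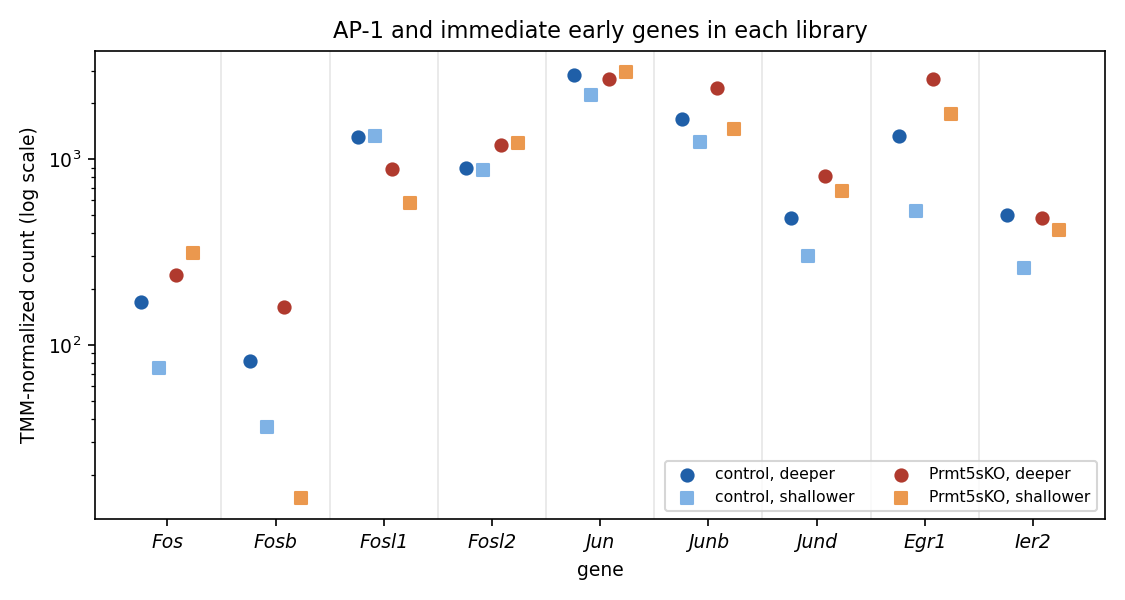
TMM-normalized counts of the 9 genes (log scale) in the 2 control libraries (blue) and the 2 Prmt5sKO libraries (red and orange), with circles for the deeper and squares for the shallower library of a group. Groups do not overlap for Fos, Fosl2, Jund and Egr1, which are higher in Prmt5sKO, or for Fosl1, which is lower, and the Fosb libraries of Prmt5sKO lie at 161 and 15.1.

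Fos (ENSMUSG00000021250, chromosome 12, 85473890 to 85477273, plus strand, GRCm38) encodes the c-Fos partner of Jun and is the textbook immediate early gene. It had normalized counts of 171 and 75.2 in control and of 238 and 312 in Prmt5sKO cells. Both Prmt5sKO libraries were above both control libraries, and the control libraries differed from each other 2.27-fold. The group means were 123 ± 67.5 and 275 ± 52.3 (SD, n = 2 each). Its log2 fold change was 1.21 (SE, the standard error, 0.45, 95% interval 0.10 to 2.32), with an adjusted p of 0.355 in limma-voom. It was 0.67 when the shallower control library was left out and 1.82 when the deeper one was, so the value depended on which control it was set against.

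Fosb (ENSMUSG00000003545, chromosome 7, 19302696 to 19310051, minus strand), an early induced Fos relative, was the least abundant member per kb in each library. Its normalized counts were 82.5 and 36.3 for control and 161 and 15.1 for Prmt5sKO cells. The highest and the lowest value of the 4 were both Prmt5sKO libraries, which differed 10.7-fold. The fitted log2 change was 0.00 (SE 1.16, 95% interval -2.82 to 2.83, limma-voom adjusted p = 0.999). It was 1.51 when the shallower Prmt5sKO library was left out and -1.86 when the deeper one was. These libraries therefore give no direction for Fosb.

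Fosl1 (ENSMUSG00000024912, chromosome 19, 5447547 to 5455946, plus strand) encodes Fra-1, a Fos protein without the transactivation domain of c-Fos that accumulates in proliferating cells with sustained MAP kinase signalling. It had normalized counts of 1324 and 1336 in control and of 885 and 578 in Prmt5sKO cells. The control libraries were nearly equal, and both Prmt5sKO libraries were below them. The log2 fold change was -0.88 (SE 0.26, 95% interval -1.52 to -0.24), with an adjusted p of 0.299 in limma-voom. It was -0.90 and -0.87 without the deeper and shallower control library, -1.20 without the deeper and -0.59 without the shallower Prmt5sKO library. Fosl1 was the only member that lay lower in Prmt5sKO under each of the 13 alternatives, with values from -1.20 to -0.59.

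Fosl2 (ENSMUSG00000029135, chromosome 5, 32135801 to 32157842, plus strand) encodes Fra-2, the Fos relative that is usually expressed without a stimulus. Its normalized counts were 894 and 878 for control and 1200 and 1224 for Prmt5sKO cells. This was the most even member, as the libraries of each group were within 2% of each other. Its log2 fold change was 0.45 (SE 0.20, 95% interval -0.04 to 0.94, limma-voom adjusted p = 0.400). Leaving out any 1 library moved it only between 0.44 and 0.47.

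Jun (ENSMUSG00000052684, chromosome 4, 95049034 to 95052222, minus strand), the founding partner in AP-1 and itself an AP-1 target, was the most abundant member per kb in both control libraries. It had normalized counts of 2834 and 2227 in control and of 2700 and 2950 in Prmt5sKO cells. The groups overlapped, and the log2 fold change was 0.17 (SE 0.22, 95% interval -0.37 to 0.70, limma-voom adjusted p = 0.754). The interval leaves room for a change of up to 0.70 on the log2 scale upwards. The antisense gene Junos overlaps Jun and had 27 and 32 reads in the control and 66 and 44 in the Prmt5sKO libraries.

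Junb (ENSMUSG00000052837, chromosome 8, 84974484 to 84978718, minus strand) encodes the Jun relative that is known to oppose c-Jun at several growth genes. It had normalized counts of 1642 and 1235 in control and of 2418 and 1458 in Prmt5sKO cells. Within each group the deeper library was higher, and the groups overlapped. The fitted log2 change was 0.40 (SE 0.31, 95% interval -0.36 to 1.15, limma-voom adjusted p = 0.596). It was 0.76 when the shallower Prmt5sKO library was left out and 0.03 when the deeper one was.

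Jund (ENSMUSG00000071076, chromosome 8, 70698949 to 70700616, plus strand) encodes the Jun relative present in most resting cells, which is known to slow the growth of cultured fibroblasts. Its normalized counts were 484 and 300 for control and 815 and 676 for Prmt5sKO cells. Both Prmt5sKO libraries were above both control libraries. The log2 fold change was 0.95 (SE 0.30, 95% interval 0.22 to 1.69), with an adjusted p of 0.317 in limma-voom. It ranged from 0.63 without the shallower to 1.30 without the deeper control library, and it stayed above 0 in each of the 13 alternatives. Jund is a gene of 1 exon with a GC content of 67.1%, the highest among the members, and its log2 fold change was 1.08 after a trend with GC content and exon length was removed.

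Egr1 (ENSMUSG00000038418, chromosome 18, 34859823 to 34864984, plus strand) is no AP-1 protein but a zinc finger factor induced by the same MAP kinase and SRF route. It had normalized counts of 1334 and 527 in control and of 2689 and 1747 in Prmt5sKO cells. Both Prmt5sKO libraries were above both control libraries, yet the control libraries differed 2.53-fold. Its log2 fold change was 1.35 (SE 0.46, 95% interval 0.23 to 2.47), the largest of the members, with an adjusted p of 0.3298 in limma-voom. It was 0.70 when the shallower control library was left out and 2.02 when the deeper one was.

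Ier2 (ENSMUSG00000053560, chromosome 8, 84661331 to 84662852, minus strand), an early response gene of 1 exon whose product acts in the nucleus, had normalized counts of 504 and 259 in control cells. The Prmt5sKO libraries had 484 and 415 and lay between the controls. The fitted log2 change was 0.30 (SE 0.36, 95% interval -0.57 to 1.17, limma-voom adjusted p = 0.732), and it turned to -0.16 without the shallower control library.

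**Figure D2:**
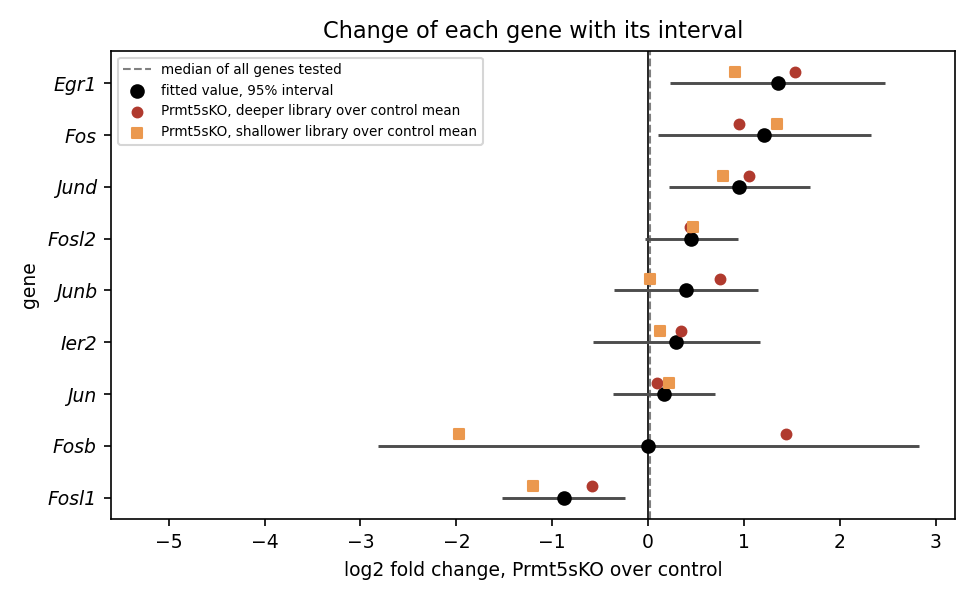
Log2 fold change of each gene, Prmt5sKO over control, as fitted by limma-voom (black points) with its 95% interval (lines), and each Prmt5sKO library over the control mean (red circles, deeper library, and orange squares, shallower library). Egr1, Fos and Jund lie above 0 and Fosl1 below 0 with intervals that do not cross 0 before adjustment, while the interval of Fosb runs from -2.82 to 2.83. The dashed line is the median of all genes tested, 0.02.

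The spread between the control libraries was part of the pattern. The deeper control library was higher than the shallower one for 8 of the 9 members, all but Fosl1, with a median log2 ratio of 0.69, whereas over all genes it was higher for 51.3% with a median of 0.02. For 5 members, Fos, Fosb, Jund, Egr1 and Ier2, the deeper control library had at least 1.5 times the level of the shallower one, which held for 19.7% of all genes. The Prmt5sKO libraries did not share this order for all members, since the deeper one was higher for 6 of the 9 and Fos was lower there. Without the shallower control library, limma-voom gave an unadjusted p under 0.05 for 0 members, against 4 with all libraries and 3 without the deeper control library, and the number of all genes at that level was 658 against 2101. The shallower control library was the one with 14.9% of ribosomal-type counts, and the part of that difference in the members' values was not tested.

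Levels of different genes were compared as normalized counts per kb of exon. In control cells the order from high to low was Jun, Fosl1, Junb, Ier2, Jund, Egr1, Fosl2, Fos and Fosb, with mean levels from 793 to 9.52 per kb. The libraries of Fosl1 and Junb overlapped, as did those of Ier2 and Jund and of Jund and Egr1, so these neighbours are not ordered. In Prmt5sKO cells the order was Jun, Junb, Egr1, Jund, Fosl1, Ier2, Fosl2, Fos and Fosb, from 886 to 14.1 per kb. There Jun and Junb overlapped, as did Egr1 and Jund, Jund and Fosl1, Fosl1 and Ier2, and Fosl2 and Fos. Mean levels of Fosl1 were 654 per kb in control and 360 per kb in Prmt5sKO, and those of Egr1 were 207 and 495 per kb.

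Within the Fos family, Fosl1 made up most of the mRNA per kb in every library. Its share was 78.5% and 83.6% in control and 63.4% and 52.1% in Prmt5sKO. Fos took 8.75% and 4.07% in control and 14.7% and 24.3% in Prmt5sKO. Fosl2 took 11.1% and 11.5% in control and 18.1% and 23.2% in Prmt5sKO. For each of these 3 genes the shares of the groups did not overlap, and Fosb stayed at or below 3.75% in each library. The Fos family as a whole summed to 830 and 786 per kb in the control and 686 and 546 per kb in the Prmt5sKO libraries.

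The Jun family kept a more even make-up. Jun took 47.0% and 49.4% of its counts per kb in control and 35.5% and 47.1% in Prmt5sKO. Junb took 37.7% and 37.9% in control and 44.0% and 32.3% in Prmt5sKO, so its groups overlapped. Jund took 15.3% and 12.7% in control and 20.5% and 20.6% in Prmt5sKO. Jun family counts summed to 1892 and 1414 per kb in control and 2386 and 1964 per kb in Prmt5sKO. Shares within a library do not depend on its scaling, but they rise for one gene where another falls, so they are no independent evidence beside the levels.

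**Figure D3:**
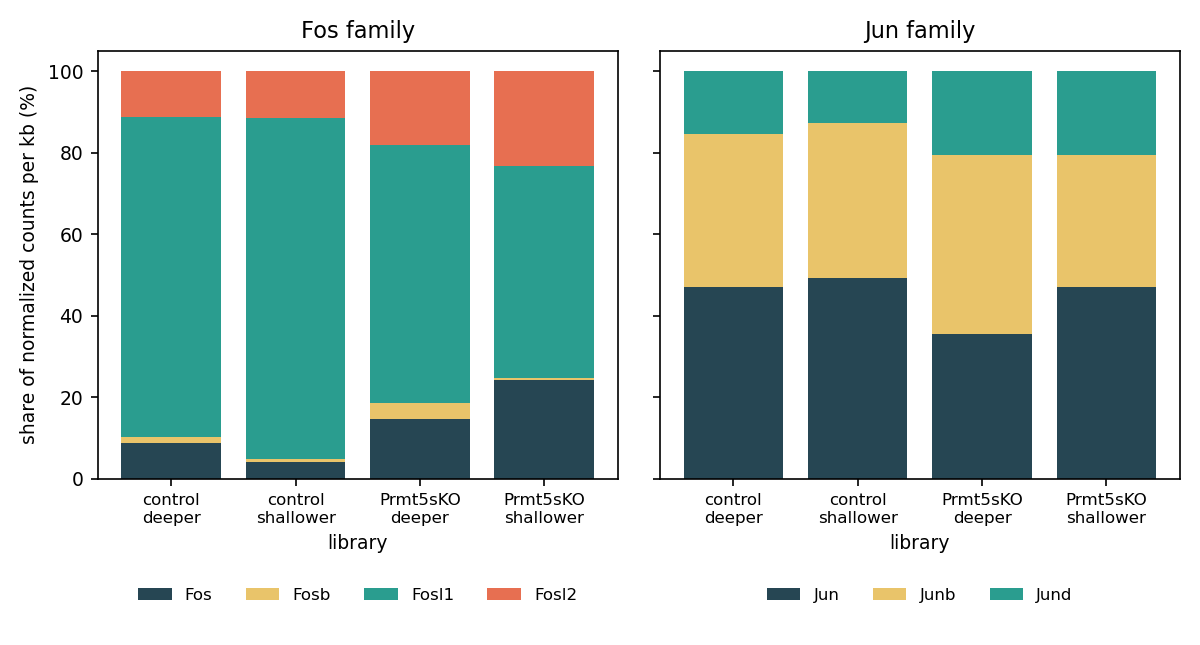
Share of each gene (%) in the TMM-normalized counts per kb of its family, for the Fos family (left) and the Jun family (right), 1 bar per library. The Fosl1 share lies at 78.5% and 83.6% in the control bars and at 63.4% and 52.1% in the Prmt5sKO bars, and the Jund share at 15.3% and 12.7% against 20.5% and 20.6%.

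Further genes of the pathway were taken from lists by function. Counts in these lists stand beside the shares over all genes tested. Without overlap 25.2% were higher and 23.6% lower, and at an unadjusted p under 0.05 in limma-voom 6.01% were higher and 6.95% lower. Among 16 other immediate early transcription factors tested, 11 had a log2 fold change above 0 and 5 below 0, with a median of 0.13. An unadjusted p under 0.05 was reached by 1, Egr3, and by none in the lower direction, and 3 were higher and 1 lower without overlap. Egr3, a zinc finger relative of Egr1, had normalized counts of 20.3 and 0 in control and of 176 and 78.4 in Prmt5sKO cells. Egr2, a further relative, had 79.1 and 0 in control and 161 and 109 in Prmt5sKO. Both genes were thus without a read in the shallower control library, the one in which Egr1 was lowest, and both Prmt5sKO libraries were above both controls. Their fitted fold changes depend on the value added to a count of 0 and are not given. Srf, the factor that binds the CArG box, had 2251 and 1825 in control and 1596 and 2101 in Prmt5sKO (log2 fold change -0.15), and Klf10, induced early by TGF-beta, had 2476 and 2354 against 3046 and 1937 (log2 fold change 0.01).

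Of 28 other immediate early genes tested, 4 had an unadjusted p under 0.05 upwards and 0 downwards. Without overlap, 8 (28.6%) were higher and 2 (7.14%) lower, against 25.2% and 23.6% of all genes. The median was 0.13, which turned to -0.25 without the shallower control library and was 0.43 without the deeper one. Btg2, an antiproliferative gene that is also a known p53 target, had normalized counts of 539 and 121 in control and of 1123 and 1344 in Prmt5sKO cells. Its log2 fold change was 2.21 (SE 0.59, limma-voom adjusted p = 0.276), and here again the shallower control library was the lowest. Arc, a target of SRF and Egr factors, had 170 and 113 in control and 442 and 242 in Prmt5sKO (log2 fold change 1.26, SE 0.46, limma-voom adjusted p = 0.351). For the most abundant pair of the list the groups overlapped. Thbs1, a secreted matrix protein, was at a log2 fold change of -0.07 (SE 0.32), and Errfi1, an inhibitor of the EGF receptor, -0.18 (SE 0.46).

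Of the 11 other bZIP partners tested, which can pair with Fos or Jun proteins, 1 was higher and 0 lower at an unadjusted p under 0.05, and 1 was higher and 3 lower without overlap, with a median of 0.01. Maf had normalized counts of 70.1 and 66.1 in control and of 203 and 268 in Prmt5sKO cells (log2 fold change 1.74, SE 0.41, limma-voom adjusted p = 0.254). Mafg, a small Maf protein without its own activation domain, had 1078 and 1788 in control and 957 and 703 in Prmt5sKO (log2 fold change -0.75, SE 0.32, limma-voom adjusted p = 0.390). Jdp2, a repressor that pairs with Jun, had 1395 and 1014 against 815 and 1419, with overlap.

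The 32 genes of the MAP kinase and serum response cascade had a median of -0.04, with 2 higher and 2 lower at an unadjusted p under 0.05 and 3 higher and 5 lower without overlap. Map2k3, a kinase of the p38 branch, had normalized counts of 2668 and 3591 in control and of 4515 and 1729 in Prmt5sKO, so its highest and lowest values were both Prmt5sKO libraries. Araf, a RAF kinase, was at a log2 fold change of 0.66 (SE 0.21, limma-voom adjusted p = 0.310). Map2k5, a MAP kinase kinase, was at -0.74 (SE 0.26, limma-voom adjusted p = 0.332).

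Among the 10 MAP kinase phosphatases, which switch the kinases off, 1 was higher and 1 lower at an unadjusted p under 0.05. Without overlap, 2 were higher and 1 lower, and the median was 0.22. This median was 0.18 without the deeper and 0.06 without the shallower control library. It was 0.06 without the deeper and -0.05 without the shallower Prmt5sKO library. Dusp9, which acts in the cytoplasm, had normalized counts of 436 and 708 in control and of 137 and 134 in Prmt5sKO cells (log2 fold change -2.02, SE 0.37, limma-voom adjusted p = 0.217). Dusp10, which acts on p38 and JNK, had 542 and 581 in control and 837 and 1000 in Prmt5sKO (log2 fold change 0.70, SE 0.23, limma-voom adjusted p = 0.320). Dusp4 and Dusp5, nuclear phosphatases that growth factors induce, were at -0.47 and -0.43 on the log2 scale, and their groups overlapped.

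For 12 genes that control the decay of immediate early mRNAs or of AP-1 proteins, 1 was higher and 2 lower at an unadjusted p under 0.05, 3 were higher and 4 lower without overlap, and the median was -0.01. Zfp36l1, which brings AU-rich mRNAs to decay, had normalized counts of 71.2 and 66.1 in control and of 232 and 243 in Prmt5sKO cells (log2 fold change 1.78, SE 0.37, limma-voom adjusted p = 0.236). Khsrp, another decay factor of AU-rich mRNAs, had 5694 and 5829 in control and 3788 and 3746 in Prmt5sKO (log2 fold change -0.61, SE 0.19, limma-voom adjusted p = 0.313). Elavl1, which encodes the stabilizing protein HuR, was at -0.39 (SE 0.20). The list thus held decay factors on both sides.

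Of 15 textbook AP-1 target genes tested, 9 had a log2 fold change above 0 and 6 below 0. Without overlap, 5 (33.3%) were higher and 0 lower, against 25.2% and 23.6% of all genes. The median of the list, 0.08, rested on single libraries, as it was -0.22 without the deeper and 0.54 without the shallower Prmt5sKO library. At an unadjusted p under 0.05, 1 was higher, Ccl2, a chemokine with normalized counts of 2.26 and 0 in control and of 18.5 and 32.2 in Prmt5sKO cells. Hmox1, heme oxygenase, had 1503 and 1451 in control and 4374 and 1896 in Prmt5sKO (log2 fold change 0.96, SE 0.40, limma-voom adjusted p = 0.389). Spp1, which encodes osteopontin, had 67630 and 12236 in control and 72574 and 39107 in Prmt5sKO, with the lowest value again in the shallower control library. Ccnd1, which encodes cyclin D1, was at a log2 fold change of 0.08 (SE 0.27). The other immediate early transcription factors shared 2 genes with the bZIP list and 1 with the cascade list, and the other immediate early genes shared 1 with the phosphatases and 1 with the decay list. Egr4, Batf, Mmp3 and Il6 were not analysed here.

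**Figure D4:**
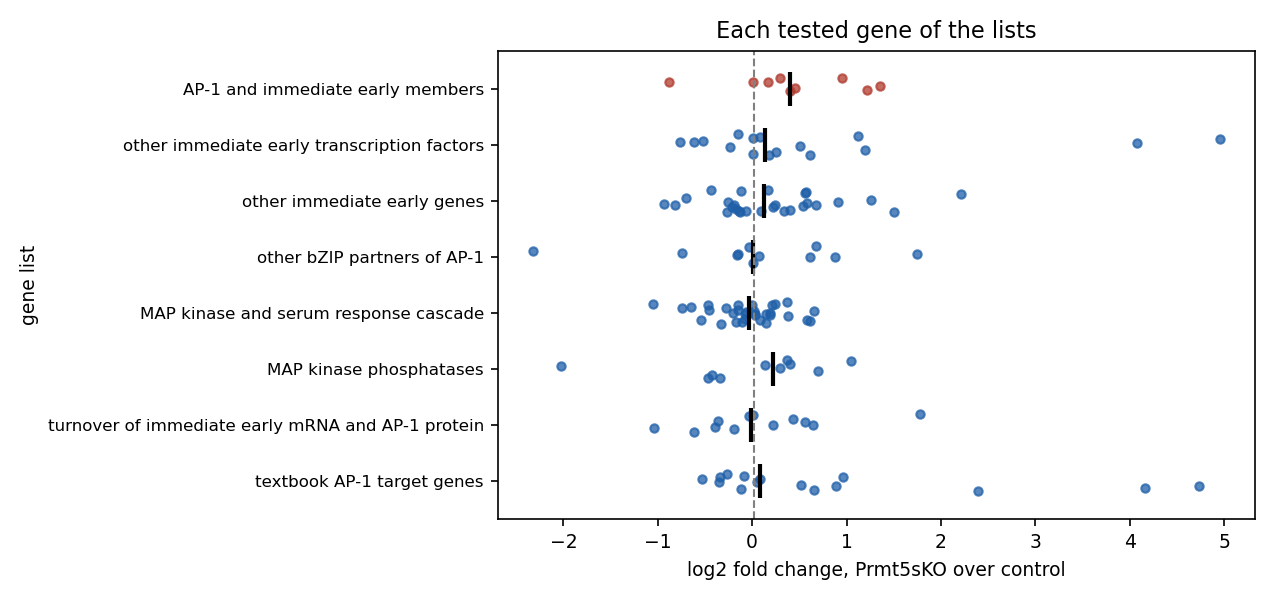
Log2 fold change, Prmt5sKO over control, of each tested gene of the 9 members (red) and of 7 further lists (blue), with the median of each list (black bar) and the median of all genes tested, 0.02 (dashed line). Points are spread vertically within a list for legibility only. With all libraries the members' median is 0.40 and those of the other lists lie between -0.04 and 0.22, and the far right points, such as Egr3 and Ccl2, have a control library at 0 or near it.

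Markers of other cells were low. The blood markers in the table, Itgam, Cd68 and Csf1r, summed to between 65.9 and 126 normalized counts, the 4 endothelial markers to between 56.3 and 163, and the 6 fibro-adipogenic markers to between 248 and 602. Cd34, which muscle stem cells also express, gave most of the last sum in all but the shallower control library, with 220 and 24.6 in control and 539 and 271 in Prmt5sKO. In the shallower control library Dcn was at 115, against 7.91 to 16.1 in the other libraries, and Lum was at 27.2, against 0 in the others, and their part in the members' values was not tested. The 10 markers of differentiating muscle were all above 0 on the log2 scale, with a median of 2.81. For 7 of them (70%) both Prmt5sKO libraries were above both controls, against 25.2% of all genes. Each marker was higher in the shallower Prmt5sKO library than in the deeper one. In the deeper one Myh8, Tnnc2 and Ttn were below the control mean (log2 ratios of -0.52, -0.19 and -1.18) and the other markers above it. Myog had 1436 and 1189 in control and 3707 and 19508 in Prmt5sKO. In bulk RNA, a change in the number of cells of a type and a change in RNA per cell cannot be told apart. Without the shallower Prmt5sKO library, Fos was at 1.03, Jund at 1.08, Egr1 at 1.66 and Fosl1 at -0.59 on the log2 scale, all on the same side as with it. Leaving that library out does not remove the difference in the markers, since most were above the control mean in the deeper one too. The part of the markers in the members' values was not tested.

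Some reads of the members could belong to neighbours on the opposite strand, since the strand setting of the counting is not given in the sources used here. Prdx2, which overlaps the 3′ end of Junb, had 2775 and 1642 reads in control and 3765 and 3169 in Prmt5sKO libraries. That was more than Junb in each library, with 1453 and 952 reads in control and 3264 and 1450 in Prmt5sKO. Ccdc85b, which overlaps Fosl1, had 217 and 88 reads in control and 183 and 136 in Prmt5sKO, fewer than Fosl1 in each library.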

How the data were processed

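RNA of 4 libraries of cultured MuSC, 2 control and 2 Prmt5sKO, had been depleted of ribosomal RNA and sequenced on an Ion Torrent instrument. Per the submitters' processing notes the tools were STAR 2.4.0a and DESeq2 1.62 and the build was GRCm38 (mm10). As deposited, each signal value is an average, made by the authors, of counts divided by size factors over the libraries of a group. The deposited columns of log2 fold changes, standard errors and p-values of the authors' own comparison were not used. Each average can be written with 2 steps, 1 per library, each taken a whole number of times, and from these the whole counts of each library were recovered for all 20065 genes (0 values not whole, largest relative residual 5.1e-15). In 1 control gene a second solution was within tolerance.

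Counts were scaled by TMM (own code, trims of 0.3 and 0.05), genes whose mean normalized count was below 5 were dropped, and groups were compared with limma-voom (limma 3.58.1, R 4.3.3) over 16212 genes with Benjamini-Hochberg adjustment. A call needed an adjusted p no higher than 0.05 and a change of 2-fold or more. Count models such as that of DESeq2 were not run on the recovered counts. The code was tested on simulated data. Symbols, coordinates, exon lengths and GC content came from GENCODE M21 (GRCm38), which held 19782 of the gene identifiers. Promoters came from RefSeq (GRCm38.p6) for 6 of 9 members, of which 4 were printed. Fosl1 and Ier2 had no entry there, and Egr1 was left out of the search. Sequences were read with Python 3.11.15 and pandas 2.3.3, and figures were drawn with matplotlib 3.10.9.

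The members and the 12 other lists were chosen with earlier results of these data known. From each of the 7 pathway lists, the 2 genes with the highest mean and the 2 with the smallest p were named; marker genes could all be named. A gene under this rule is not reported here. Xist and the genes that overlap members were added as checks. The 13 alternatives were other scalings, no minimum mean, limma-trend, a correction for GC content and exon length, no ribosomal-type genes, 2 replicate blocks and each library left out. No set test was run. The counts recovered over genes, 13240754 to 20047430 per library and not the number of reads sequenced, and 2 libraries per group limit the precision.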

Additional observations from a re-analysis of the deposited data

How the results depend on the processing

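Of 117 values of the 9 members under 13 alternatives, 108 kept their direction, and 0 member values passed the threshold of limma-voom under any of them. Fosb changed sign in 7: its log2 fold change was -0.0046 with size factors of the authors, -0.038 with upper-quartile scaling, -0.0035 with no minimum mean, -0.14 in robust limma-trend, -0.18 with GC content and length removed, and from -1.86 to 1.51 with 1 library left out. Jun was at -0.024 with GC content and length removed. Ier2 ranged from -0.16 to 0.78 with 1 library left out. The cause was not tested. Over all genes, calls were 1 in robust limma-trend and from 0 to 489 with 1 library left out (0 without either control library, 489 without the deeper and 55 without the shallower Prmt5sKO library), and genes at an unadjusted p under 0.05 ranged from 658 to 2969. A fit without 1 library assumes that the lone library of its group varies like the other group. The count of members without overlap was not repeated with 1 library left out, since it then means something else.

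The deposited columns carry no replicate numbers, so a replicate block was run for both pairings. With the deeper libraries paired, the replicate block gave 0 calls, and with the deeper paired with the shallower library it gave 346 calls and 3155 genes at an unadjusted p under 0.05. Deviations from the group means correlated at -0.172 under the first pairing over 16212 genes, which are not independent. Under the second pairing the value is 0.172 by construction, the same number with its sign turned. The second pairing joins the libraries with high Xist. Members' adjusted p in limma-voom lay between 0.294 and 0.829 under the first block and between 0.101 and 0.814 under the second. Library size alone moved members upwards, Fos to 1.34 and Fosl1 to -0.78, with the median of all genes at 0.13 in place of 0.02. With 1 library left out, the members' median ranged from 0.20 to 0.76 and the medians of the 7 pathway lists from -0.25 to 0.54. At an unadjusted p under 0.05 there were 3 members under the first block and 4 under the second. Low counts limit Fosb, with 15 reads in the shallower Prmt5sKO library.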
